A study of Mus musculus with 9 samples.

Results

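RAW264.7 cells held in high glucose (HG, 35 mmol/l for 6 h) were compared with control cells (NC), with 3 libraries of polyadenylated RNA on each side. These 6 of the 9 libraries of the series were taken by their titles. The features compared were all those of the deposited gene count table that passed a filter on low counts, 13311 of 20627, of which 12125 carried an Ensembl gene identifier and 1186 were loci with no gene name. The other 3 libraries came from cells given the same glucose together with sitagliptin phosphate, a dipeptidyl peptidase 4 inhibitor, and entered the filter, the scaling and the estimate of the spread between replicates but not the contrast. With the 6 libraries alone 12891 features passed the filter and 3502 were called. RAW264.7 is an established mouse macrophage-like line transformed by Abelson leukaemia virus, so both groups share 1 transformed line and its growth properties. The labels state neither the glucose concentration nor the incubation time of NC, and name no osmotic control, so effects of glucose and of osmolality cannot be told apart here. The labels do not state whether replicates came from separate cultures. The p-values therefore reflect the spread among these libraries, and that spread may be technical.

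Library totals were 25527773 to 31571578 counts in NC and 23285821 to 29543475 in HG, and 3 counts in a library corresponded to 0.095 to 0.129 CPM, the usual unit of counts scaled to library size. The first principal component of the 6 libraries held 65.8% of the variance and separated the groups. HG replicate 3, the smallest library, lay away from both of its replicates on the second component, with 13% of the variance. All 12 macrophage markers were tested, and their summed level was 10527 to 10978 CPM in the NC libraries and 10214 to 10981 CPM in HG. Of the 12, 1 was called higher (8.33%, against 14.3% of all features tested) and 5 lower (41.7%, against 15.2%), with a median log2 fold change of -0.12. The largest fall was that of the integrin chain gene Itgam, from 126 ± 6.93 to 73 ± 4.29 CPM (-0.79 ± 0.06, SD, n = 3). Itgam overlaps another gene over 68.7% of its exonic length, so the assignment of its reads is uncertain. The sum is mostly Lyz2. Lyz2, the macrophage lysozyme gene, stood at 6286 ± 232 CPM in the control libraries and at 6107 ± 408 CPM in HG (SD, n = 3). The 8 marker lists of other cell types (T and B lymphocytes, neutrophils, mast cells, dendritic cells, fibroblasts, epithelium, endothelium and erythroid cells) each summed to at most 1.04 CPM in an NC library and 1.15 CPM in an HG library, and the fibroblast marker Lum had 0 counts in all 6.

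Macrophages keep a set of inflammatory genes ready for rapid induction. Signals that reach NF-kB, AP-1 and interferon regulatory factors raise cytokine, chemokine and surface receptor transcripts within hours, and the same signals induce phosphatases, decay factors and decoys that end the response. Glucose enters these cells through glucose transporters, and an added solute draws water from the cell, which macrophages answer by taking up or making compatible solutes such as myo-inositol, betaine and sorbitol.

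Of the 13311 features, 3927 (29.5%) were called at an adjusted p under 0.05 in edgeR's quasi-likelihood test with Benjamini-Hochberg adjustment. Of all features 14.3% were called higher in HG (1899) and 15.2% lower (2028), and the median log2 fold change over all features was 0.00. Changes of more than 1 on the log2 scale were made by 379 called features (2.85% of those tested), mostly falls: 296 called features (2.22% of those tested) were lower by that much and 83 (0.624%) were higher. The 3 NC and 3 HG libraries did not overlap for 5545 features (41.7% of those tested), the share against which each statement on overlap is read. The balance of small changes depended on scaling. With library totals alone as the scale 2480 features were called higher and 1732 lower, so that the share of calls that were higher went from 48.4% to 58.9%, while 284 falls and 93 rises past 1 were counted. Without HG replicate 3, 1871 were called higher and 2129 lower.

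Large changes sat at low and middling levels. Among the 1627 features whose average log2 CPM lay from 0 to 2, 95 fell and 25 rose by more than 1, against 5 and 2 among the 696 features over 8. The share of features called ran the other way, from 8.86% under a log2 CPM of 0 to 38.6% over 8, as the median standard error of a log2 fold change went from 0.38 to 0.04. For 9321 features (70.0%) the log2 fold change and 2 standard errors around it lay within 0.5 of no change. By CPM, which is not scaled by gene length, abundant genes that changed by much included Spp1, which encodes the secreted phosphoprotein osteopontin. Others were Odc1, the first enzyme of polyamine synthesis, and Cd14, the lipopolysaccharide coreceptor.

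**Figure D1:**
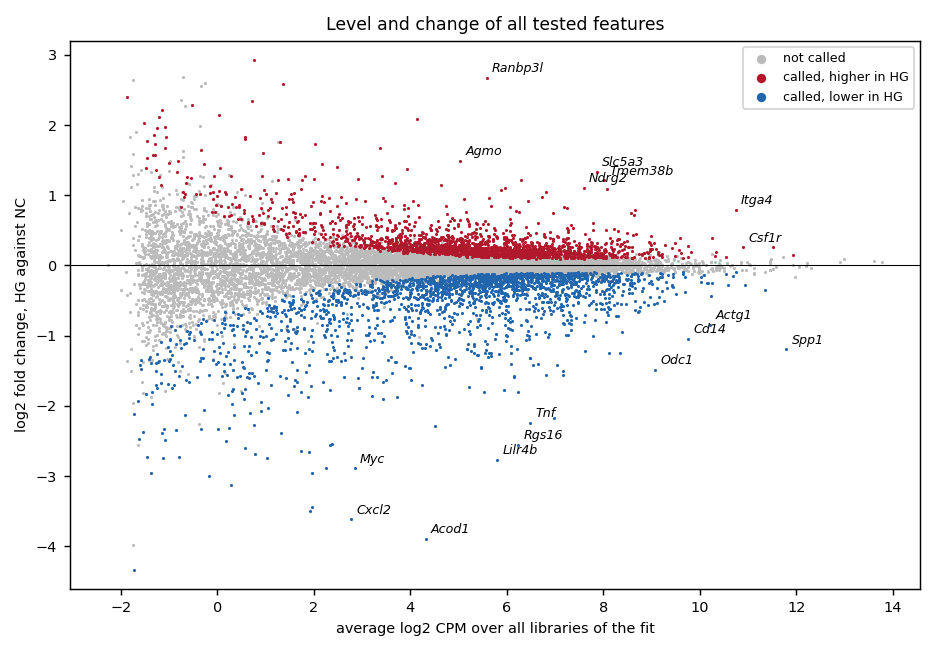
Log2 fold change of HG against NC (vertical axis) over average log2 CPM (horizontal axis) for the features tested, with called features in red (higher in HG) or blue (lower) and 6 points outside the axes not drawn. Falls reach further than rises, and Spp1 and Odc1 stand out among the abundant genes with log2 fold changes of -1.19 and -1.49.

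The deepest fall among genes whose average log2 CPM was at least 2 was that of Acod1, which encodes the enzyme that makes itaconate from a citric acid cycle intermediate. Acod1 stood at 54.1, 55.7 and 56.3 CPM in the 3 NC libraries and at 4.63, 3.18 and 3.25 CPM in the HG libraries. Every NC library was more than 10 times every HG library, and the log2 fold change was -3.89 ± 0.11 (SE, adjusted p = 1.0e-10). Cxcl2, a chemokine gene that draws neutrophils, was at 19.4, 15.4 and 16.6 CPM in NC and 1.29, 1.96 and 0.924 CPM in HG. Its groups did not overlap, and the log2 fold change was -3.61 ± 0.24 (adjusted p = 1.8e-07).

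Tnf, the gene of tumour necrosis factor, was expressed at 200, 191 and 190 CPM in NC and at 42.5, 42.2 and 38.1 CPM in HG. The libraries within each group lay close together, and the difference of -2.24 ± 0.06 on the log2 scale was many times their spread (adjusted p = 4.9e-11). Spp1, at 6735, 6242 and 6398 CPM in NC, came to 2834, 2829 and 2833 CPM in HG. That is the largest drop in CPM among the genes named here, and the 3 HG libraries had an SD of 2.88 CPM (log2 fold change -1.19 ± 0.04, adjusted p = 2.4e-10). Odc1 went from 1014, 1024 and 1015 CPM to 366, 360 and 364 CPM (-1.49 ± 0.03, adjusted p = 2.3e-11).

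Other deep falls were in genes of signalling, surface recognition and stress. Rgs16, which shortens signals through G proteins, had 186, 190 and 204 CPM in NC and 35.1, 32.5 and 31.0 CPM in HG (log2 fold change -2.56 ± 0.06). Chac1, whose product degrades glutathione, had 11.2, 10.5 and 11.2 CPM in NC and 1.6, 1.45 and 1.41 CPM in HG (-2.88 ± 0.10). Neither gene's groups overlapped, as the rule that chose the 30 largest falls required of every gene among them. Plaur, the receptor that holds urokinase at the cell surface, went from 118, 120 and 120 CPM to 36.0, 36.0 and 32.4 CPM (-1.78 ± 0.05). Nfkbie, which encodes an inhibitor that holds NF-kB in the cytoplasm, went from 23, 22.7 and 23.6 CPM to 6.27, 6.47 and 6.25 CPM (-1.87 ± 0.07). All 4 had an adjusted p under 0.05, which that rule also required. The remainder of the 30 largest falls ran down to Fgr at -1.58, a Src family kinase gene.

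**Figure D2:**
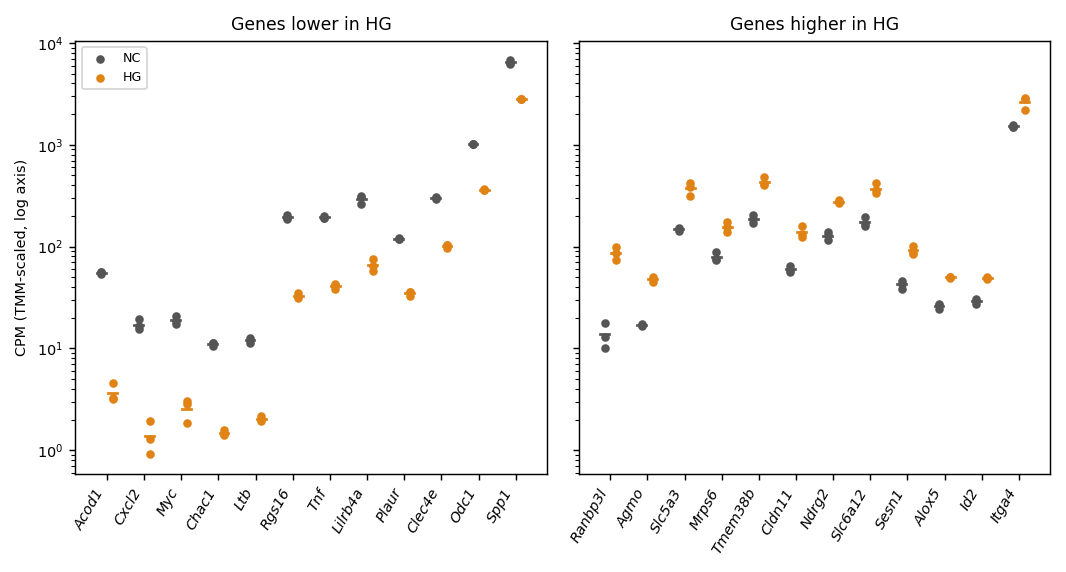
CPM on a log axis in each NC library (grey) and HG library (orange), with group means as bars, for 12 genes lower in HG (left panel) and 12 higher (right panel). In both panels the 3 libraries of a group lie close together next to the gap between groups, from the low level of Ltb to the high level of Spp1.

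Promoter sequence is shown for the genes with the deepest falls whose window held a match to 1 of 4 motifs, so that a reader can see the letters of the genes described. The windows come from RefSeq (GRCm38.p6) and reach from 250 bases before the start to 50 bases after it. Shares of windows with a motif, and statements that a window held none, cover all 300 bases. Printed matches were sought only in the 250 bases before the start. Of those bases, 90 are printed 5′ to 3′ on the gene's strand, with the motif match nearest the start in capitals. Windows were found for 9310 of 12100 tested gene symbols (76.9%) and for 67.3% of genes lower by more than 1, which is too few to compare motif shares between groups of genes. The kappa-B consensus, which NF-kB dimers bind, was searched on both strands and was present in 9.90% of all 9310 windows. Cxcl2 (chr5:90903763-90903852, plus strand) held it 87 to 96 bases before the start, and Ltb (chr17:35194380-35194469, plus strand), the gene of lymphotoxin beta, 78 to 87 bases before the start. Cxcl2 held 2 matches, which overlap each other.
Cxcl2: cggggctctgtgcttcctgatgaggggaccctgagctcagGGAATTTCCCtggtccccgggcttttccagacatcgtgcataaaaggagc
Ltb: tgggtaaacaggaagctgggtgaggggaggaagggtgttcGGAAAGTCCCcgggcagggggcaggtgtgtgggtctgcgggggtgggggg

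The AP-1 motif TGANTCA, searched on both strands, was in 4.71% of the windows. Nfkbie (chr17:45555502-45555591, plus strand) held it 150 to 156 bases before the start, and Plaur (chr7:24462372-24462461, plus strand) 63 to 69 bases before the start.
Nfkbie: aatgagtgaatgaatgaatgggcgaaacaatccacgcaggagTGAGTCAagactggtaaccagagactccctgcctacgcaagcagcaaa
Plaur: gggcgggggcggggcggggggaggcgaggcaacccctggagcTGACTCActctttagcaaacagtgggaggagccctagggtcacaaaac
The core of the interferon-stimulated response element, 2 copies of GAAA with 2 bases between them, searched on both strands, was in 3.18% of the windows. Cxcl10 (chr5:92349050-92349139, minus strand), an interferon-induced chemokine gene, held it 204 to 213 bases before the start, and Isg15 (chr4:156200835-156200924, minus strand), a ubiquitin-like modifier induced by interferon, 57 to 66 bases before the start. Isg15 held 2 matches, and the one further from the start is printed in lower case.
Cxcl10: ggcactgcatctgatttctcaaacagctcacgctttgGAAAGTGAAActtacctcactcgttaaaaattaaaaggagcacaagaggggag
Isg15: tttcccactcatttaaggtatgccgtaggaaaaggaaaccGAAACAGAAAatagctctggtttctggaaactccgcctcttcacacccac

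The amino acid response element core TGATGNAA, which ATF4 dimers bind, was in 2.3% of the windows. Chac1 (chr2:119351008-119351097, plus strand) held it 186 to 193 bases before the start, in reverse orientation, and Il13ra2 (chrX:147429289-147429378, minus strand), a decoy receptor gene for interleukin 13, 138 to 145 bases before the start.
Chac1: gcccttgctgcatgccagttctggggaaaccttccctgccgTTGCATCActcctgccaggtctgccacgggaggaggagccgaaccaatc
Il13ra2: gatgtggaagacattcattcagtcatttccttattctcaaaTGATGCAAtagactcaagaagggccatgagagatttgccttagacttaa
These matches are descriptions of the printed letters and do not show binding. The windows of Tnf and Acod1 held none of the 4 motifs, which says only that the letters are not in those windows. The windows of Slc5a3 and Slc6a12, described further on among the rises, did not hold the tonicity element (TonE), present in 3.62% of all windows. That, too, describes only the letters of those windows. The window of Cxcl2, which fell, held the element, and no window was found for Akr1b3, also among the rises.

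Gene lists by role are read here against the shares called over all features, 14.3% higher and 15.2% lower, with an all-feature median of 0.00. Of the 9 tested ligands of the TNF superfamily, 0 rose and 5 fell (median log2 fold change -0.73): Tnf, Ltb, Tnfsf15, Tnfsf8 and the T cell costimulator Tnfsf9. Ltb had 12.1, 12.6 and 11.4 CPM in NC and 2.02, 2.16 and 1.94 CPM in HG (-2.56 ± 0.12). Tnfsf15 was scarce, with 113 counts over the NC libraries and 15 over the HG libraries. Of their 15 tested receptors 1 rose and 5 fell (median -0.13, and -0.083 without HG replicate 2). The death receptor gene Fas went from 4.91, 3.59 and 4.78 CPM to 0.661, 0.746 and 0.572 CPM (-2.74 ± 0.21), and Cd40, through which T cells activate macrophages, from 3.09, 1.82 and 2.94 CPM to 0.313, 0.275 and 0.308 CPM (-3.12 ± 0.29). The main TNF receptor gene Tnfrsf1a was at 74.5 ± 2.32 and 75.5 ± 3.24 CPM, with overlapping groups (0.02 ± 0.04, adjusted p = 0.778), and the decoy receptor gene Tnfrsf22 rose from 14.2 ± 0.828 to 20.1 ± 1.67 CPM (0.51 ± 0.07, SD, n = 3).

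Among 19 tested cytokine and growth factor genes outside that family, 1 rose and 12 fell (median log2 fold change -0.65, and -0.37 under a stricter filter on low counts). The scarce members fell furthest, Il1b with 52 counts in NC and 2 in HG, and the epidermal growth factor receptor ligand Areg at 4.25, 5.57 and 4.85 CPM in NC and 1.08, 1.57 and 0.924 CPM in HG (-2.03 ± 0.20). Pdgfb, a platelet-derived growth factor that acts on mesenchymal cells, had 137, 128 and 137 CPM in NC and 53.8, 45.9 and 52.5 CPM in HG, with a wide gap between the groups (-1.40 ± 0.06, adjusted p = 5.8e-09). The angiogenic Vegfa fell by 0.91 ± 0.12, from 51.1 to 27.4 CPM, and Vegfb rose by 0.32 on the log2 scale. Mif and Grn, both abundant, did not pass the test (-0.08 and -0.05).

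Of 27 tested interleukin and cytokine receptor genes 2 rose and 13 fell (median -0.25), and 1 rose under a stricter filter on low counts. The largest change in the list was a rise of 1.58, and the deepest fall was -1.42. Il1rl1, the interleukin 33 receptor, was at 136, 121 and 138 CPM in NC and 72.9, 68.7 and 77.8 CPM in HG (-0.85 ± 0.06, adjusted p = 1.7e-07). Il2rg, the gamma chain shared by several interleukin receptors, went from 68.5 ± 1.73 to 45.0 ± 0.941 CPM (-0.60 ± 0.04, SD, n = 3). The chains of the type I interferon receptor moved apart: Ifnar1 was at 97.0, 93.7 and 97.8 CPM in NC and 82.3, 79.4 and 79.8 CPM in HG (-0.26 ± 0.03), and Ifnar2 at 81.9, 82.8 and 82.8 CPM in NC and 100, 100 and 95.6 CPM in HG (0.26 ± 0.04). The groups did not overlap for either chain. Downstream, of 28 interferon regulatory factor, JAK, STAT and SOCS genes 1 rose and 15 fell (median -0.19), with the feedback inhibitor Socs3 at 16.7, 17.4 and 18.1 CPM in NC and 5.22, 5.30 and 7.04 CPM in HG (-1.58 ± 0.10).

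Of 15 tested feedback regulators of the ERK kinases 0 rose and 11 fell, with a median log2 fold change of -0.38. Dusp5, a nuclear ERK phosphatase gene, had 11, 10.7 and 12.7 CPM in NC and 1.95, 1.80 and 2.15 CPM in HG (-2.55 ± 0.16); it overlaps another gene over 22.1% of its exonic length. Dusp4 had 145, 148 and 153 CPM in NC and 75.6, 77.1 and 81.6 CPM in HG (-0.93 ± 0.05). In both cases every HG library was far below every NC library, whereas Dusp1, the broad stress phosphatase gene, overlapped between groups at 13.6 ± 2.24 and 12.8 ± 1.45 CPM (-0.09 ± 0.14, adjusted p = 0.668).

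The early growth response genes, transcription factors induced through ERK, fell together. Egr1 had 51.9, 58.3 and 46.6 CPM in NC and 26.7, 27.7 and 17.4 CPM in HG (-1.11 ± 0.15), with HG replicate 3 the lowest. Egr2 went from 17.1 to 8.17 CPM (-1.07 ± 0.12) and Egr3 from 15.9 to 8.89 CPM (-0.84 ± 0.14). Of 14 tested AP-1 subunits 1 rose and 8 fell (median -0.34). Jdp2, a repressor subunit, went from 74.6, 76.3 and 78.9 CPM to 33.0, 32.7 and 34.4 CPM (-1.20 ± 0.05), and Junb from 241, 250 and 261 CPM to 142, 140 and 140 CPM (-0.83 ± 0.04). Fos itself, at 118, 114 and 136 CPM in NC and 100, 92.2 and 90.1 CPM in HG, did not pass the test with the spread taken over all 9 libraries (-0.38 ± 0.16, adjusted p = 0.0888) and did with the 6 libraries alone (adjusted p = 0.0015).

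In the MYC network Myc and Mycn moved in opposite directions. Myc stood at 18.7, 17.4 and 20.7 CPM in NC and 2.82, 1.84 and 3.04 CPM in HG (-2.88 ± 0.14, adjusted p = 1.1e-08). Mycn, the paralogue best known from neural tissue, stood at 436, 485 and 450 CPM in NC and 558, 614 and 547 CPM in HG (0.33 ± 0.05, adjusted p = 3.0e-04). Per kilobase of exon, Mycn was far the more abundant in both groups, at 139 and 174 CPM per kb against 6.96 and 0.945 for Myc. Of the 12 tested members 3 rose and 1 fell (2 fell without NC replicate 2, HG replicate 2 or HG replicate 3), and the shared partner Max was not called (0.02). Of 17 polyamine genes 3 rose and 6 fell, and 1 rose without HG replicate 2. Beside Odc1 the spermine oxidase gene Smox went from 85.7, 81.8 and 90.2 CPM to 42.4, 44.0 and 44.7 CPM (-0.98 ± 0.04), whereas spermidine synthase Srm rose from 174 ± 11 to 207 ± 13.1 CPM (0.25 ± 0.05, SD, n = 3).

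Transcription factors of the macrophage lineage were lower more often than higher, with 5 of 27 higher and 16 lower (median -0.21). Cebpb, which drives inflammatory transcription, went from 52.5, 63.1 and 55.8 CPM to 34.9, 31.8 and 29.2 CPM (-0.83 ± 0.11), and Cebpd from 18.7 to 12.4 CPM (-0.59 ± 0.07). Cebpa, the family member of myeloid commitment, rose from 33.1, 32.7 and 32.4 CPM to 42.2, 40.4 and 37.6 CPM (0.29 ± 0.05). No NC library of Cebpa reached the lowest HG library. Spi1, the gene of the lineage factor PU.1, fell by a smaller amount (-0.22 ± 0.05, from 365 to 314 CPM), and Csf1r, the colony-stimulating factor 1 receptor gene, rose from 1934, 2010 and 2025 CPM to 2342, 2360 and 2441 CPM (0.26 ± 0.03, adjusted p = 9.7e-05). Id2, an inhibitor of basic helix-loop-helix factors, rose from 28.9, 27.4 and 30.7 CPM to 49.61, 47.79 and 50.05 CPM (0.76 ± 0.05).

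Surface receptors moved in both directions. Of 30 tested paired myeloid receptors, families that hold activating and inhibitory members side by side, 5 rose and 15 fell (median -0.30). The inhibitory Lilrb4a had 304, 264 and 317 CPM in NC and 64.2, 57.2 and 74.8 CPM in HG (-2.18 ± 0.09), and the related Lilr4b 145, 130 and 151 CPM in NC and 19.6, 21.1 and 22 CPM in HG (-2.77 ± 0.06). These copies are near-identical, and Lilrb4a overlaps another gene over 35.3% of its exonic length, so the division of reads between them is uncertain. Clec4e, a receptor for mycobacterial glycolipids, went from 294, 304 and 300 CPM to 104, 104 and 96.4 CPM (-1.56 ± 0.04, adjusted p = 4.9e-11). Every HG library was far below every NC library for all 3. Clec4d, the partner of Clec4e, fell as well (-0.57 ± 0.05, from 252 to 170 CPM), and Trem2, a lipid-sensing receptor gene, rose from 192, 195 and 188 CPM to 231, 236 and 225 CPM (0.27 ± 0.03).

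Toll-like receptor genes moved both ways. Of 24 tested receptor and adaptor genes 4 were higher (16.7%, near the 14.3% of all features) and 6 lower (25%, against 15.2%). The median was -0.05, and from -0.093 without HG replicate 3 to 0.025 without NC replicate 3. Tlr2, the receptor of bacterial lipopeptides, was at 383, 374 and 390 CPM in NC and 250, 234 and 264 CPM in HG (-0.62 ± 0.04, adjusted p = 4.3e-07). Tlr4, the lipopolysaccharide receptor, was at 61.0, 56.9 and 61.1 CPM in NC and 72.1, 78.5 and 82.7 CPM in HG (0.38 ± 0.05, adjusted p = 1.7e-04). The groups of neither gene overlapped. Cd14, which hands lipopolysaccharide to Tlr4, moved against it, from 1594, 1577 and 1531 CPM to 782, 790 and 706 CPM (-1.05 ± 0.05). The kinase gene Irak2 fell by 1.30 ± 0.04 on the log2 scale, from 91.6 to 37.2 CPM, and the single-stranded RNA receptor Tlr7 rose by 0.32 ± 0.05.

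Of 12 scavenger receptor genes 3 rose and 5 fell: Cd36, which takes up oxidized lipoprotein, went from 684 ± 56.7 to 432 ± 17.1 CPM (-0.66 ± 0.06), and Colec12 from 514 ± 17.2 to 651 ± 22.5 CPM (0.34 ± 0.04, SD, n = 3). Of 20 receptors for nucleotides, protons, lysolipids and metabolites 1 rose and 10 fell (median -0.25). The lysophosphatidic acid receptors parted, with Lpar1 at 8.50, 7.76 and 7.69 CPM in NC and 2.09, 2.24 and 2.20 CPM in HG (-1.88 ± 0.12), and Lpar5 at 22.3, 22.8 and 24.8 CPM in NC and 34.9, 33.3 and 32.6 CPM in HG (0.53 ± 0.05). Lpar5 was the 1 member that rose. The adenosine receptor gene Adora2b fell by 1.24 ± 0.10, from 10.01 to 4.25 CPM.

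Adhesion and shape genes were mostly lower. Of 21 tested integrins and adhesion genes 3 rose and 13 fell (median -0.25). Itga5, the alpha chain of the fibronectin receptor, was at 339, 328 and 393 CPM in NC and 146, 138 and 171 CPM in HG (-1.22 ± 0.08, adjusted p = 2.9e-07). Itga4, the alpha chain of the receptor for VCAM-1, was at 1494, 1484 and 1557 CPM in NC and 2206, 2800 and 2862 CPM in HG (0.79 ± 0.08, adjusted p = 1.3e-05), with HG replicate 1 lowest of the HG libraries. The groups overlapped for neither chain. The hyaluronan receptor Cd44 fell by 0.95 ± 0.06, from 545 to 283 CPM, and Itgb5 rose by 0.61 ± 0.04, from 52.4 to 80.0 CPM.

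Of 30 genes of the cytoskeleton and its small GTPases 1 rose and 20 fell (median -0.30), and 2 rose without HG replicate 3. Actg1, the gamma actin gene, went from 1801, 1874 and 1976 CPM to 1066, 1043 and 1036 CPM (-0.85 ± 0.04), and the beta actin gene Actb from 3463 ± 69.3 to 2706 ± 68.5 CPM (-0.36 ± 0.04, SD, n = 3). Rhoc, which controls actin contraction, went from 195, 193 and 191 CPM to 79.0, 75.2 and 64.1 CPM (-1.40 ± 0.06). The groups did not overlap for any of these. Marcksl1, a substrate of protein kinase C that binds actin, fell from 139 to 39.7 CPM (-1.80 ± 0.05), and the Rac and Cdc42 exchange factor gene Arhgef6 rose from 277 to 391 CPM (0.49 ± 0.03), while Rhoa was not called (0.01). Among semaphorins and their receptors, 1 of 18 rose (2 without NC replicate 3 or HG replicate 1) and 6 fell: Sema6d had 10.03, 9.99 and 10.5 CPM in NC and 1.36, 1.06 and 1.54 CPM in HG (-2.95 ± 0.16), and Sema4a 65.7, 66.9 and 67.3 CPM in NC and 119, 124 and 134 CPM in HG (0.91 ± 0.05).

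Secreted proteases, their inhibitors and matrix genes fell in 11 of 21 cases and rose in 2 (median -0.41). Plau, the gene of urokinase, fell as its receptor gene Plaur did, from 123, 115 and 125 CPM in NC to 67.4, 55.5 and 59.6 CPM in HG (-0.99 ± 0.06). Each HG library was below each NC library. Mmp9, a gelatinase gene, was scarce, with 178 counts over the NC libraries and 20 over the HG libraries (-3.00 ± 0.29). The sheddase gene Adam17, which releases TNF from the cell surface, fell by 0.57, and Adam10 rose by 0.30 ± 0.04, from 303 to 375 CPM. Of 12 complement and coagulation genes 1 rose and 6 fell (median -0.57).

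Genes of MHC class I presentation fell by small amounts, 14 of 22 with 0 rising (median -0.22). The peptide transporter gene Tap1 went from 29.35, 27.91 and 29.97 CPM to 19.1, 17.7 and 19.4 CPM (-0.64 ± 0.07) and B2m, the light chain, from 375, 352 and 353 CPM to 313, 302 and 300 CPM (-0.24 ± 0.04). H2-T24, a nonclassical class I gene, fell by 1.12 ± 0.05, from 91.4 to 42.0 CPM. Class I genes resemble each other, so reads may be shared between them. Of 32 constitutive proteasome genes 14 also fell and 0 rose (median -0.13), by at most 0.35 for Psmd8. Without HG replicate 1 the number of proteasome genes that fell was 9, and without HG replicate 3 the median was -0.085.

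Of 26 amino acid transporter genes 3 rose and 12 fell (median -0.13). Slc1a4, which carries neutral amino acids, had 11.2, 9.41 and 11.2 CPM in NC and 2.99, 3.37 and 3.17 CPM in HG (-1.74 ± 0.11), and the cystine importer gene Slc7a11 43.9, 44.8 and 47.9 CPM in NC and 21.9, 27.0 and 24.5 CPM in HG (-0.90 ± 0.08). Slc38a2, an amino acid transporter that hypertonic medium is known to induce, went from 514, 546 and 549 CPM to 629, 696 and 653 CPM (0.30 ± 0.05, adjusted p = 4.9e-04). Of 23 cytosolic synthetase genes, which charge tRNAs for the main translation machinery, 0 rose and 13 fell (median -0.12), with Nars at 614, 614 and 594 CPM in NC and 403, 426 and 400 CPM in HG (-0.57 ± 0.04). Of 17 mitochondrial synthetase genes 7 rose and 1 fell (median 0.14). With library totals as the scale 2 cytosolic members rose, and without HG replicate 1 or HG replicate 3, 1 did. The difference between the families was not tested.

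Serine, glycine and one-carbon genes fell in 13 of 31 cases and rose in 6 (median -0.09), or in 3 without NC replicate 3 or HG replicate 2. Aldh1l2, a mitochondrial folate enzyme gene, went from 26.1, 24.5 and 26.4 CPM to 9.68, 12.3 and 13.6 CPM (-1.13 ± 0.09), whereas Mat2a, which makes the methyl donor S-adenosylmethionine, rose from 323, 336 and 307 CPM to 437, 446 and 416 CPM (0.43 ± 0.04). Nutrient sensors of the AMPK and TORC1 pathways went both ways, 7 of 29 up and 8 down, or 4 up without NC replicate 1 or HG replicate 2. The sestrins parted within the family: Sesn2 had 14.9, 11.1 and 13.9 CPM in NC and 4.49, 4.75 and 4.84 CPM in HG (-1.51 ± 0.11), and Sesn1, known as a p53 and FoxO target, 42.8, 46.5 and 38.3 CPM in NC and 84.4, 102 and 88.6 CPM in HG (1.11 ± 0.08). The groups of neither sestrin overlapped. Ddit4, another stress-induced TORC1 inhibitor, fell by 1.22 ± 0.18, from 5.40 to 2.31 CPM.

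Rises past 1 on the log2 scale were fewer than falls (83 against 296 called features). Among genes whose average log2 CPM was at least 2 the largest rise was also smaller than the deepest fall. Ranbp3l, an export factor for SMAD proteins, led the genes whose average log2 CPM was at least 2. Ranbp3l was at 10.2, 18.0 and 13.1 CPM in NC and 74.7, 99.3 and 85.9 CPM in HG (2.67 ± 0.15, adjusted p = 4.2e-08). The gap between the groups was wider than the range within either. Agmo, which cleaves ether lipids, had 17.3, 16.8 and 16.6 CPM in NC and 44.9, 49.8 and 48.0 CPM in HG (1.49 ± 0.07, adjusted p = 1.1e-08). Tmem38b, an intracellular cation channel gene, had 170, 203 and 186 CPM in NC and 403, 481 and 414 CPM in HG (1.21 ± 0.08). Cldn11, a tight junction claudin, went from 59.3, 64.7 and 56.1 CPM to 132, 158 and 126 CPM (1.21 ± 0.08). HG replicate 2 held the highest HG value for 21 of the 30 genes with the largest rises, and NC replicate 2 the highest NC value for 19. The rule that chose the 30 genes required that their groups not overlap.

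Carriers and enzymes of compatible solutes were among the rises. Slc5a3, which imports myo-inositol, had 142, 152 and 150 CPM in NC and 314, 418 and 389 CPM in HG (1.33 ± 0.10, adjusted p = 8.6e-07). Slc6a12, the betaine importer, had 168, 194 and 161 CPM in NC and 335, 420 and 359 CPM in HG (1.09 ± 0.09). Akr1b3, aldose reductase, had 302, 328 and 305 CPM in NC and 421, 477 and 387 CPM in HG (0.46 ± 0.07). The groups did not overlap for any of the 3. The taurine importer Slc6a6, at 566, 589 and 615 CPM in NC and 577, 605 and 645 CPM in HG, overlapped between the groups (0.05 ± 0.05, adjusted p = 0.563), as did Nfat5, the tonicity-responsive transcription factor gene, at 422 ± 12.2 and 454 ± 46.1 CPM (0.10 ± 0.06, adjusted p = 0.247, and 0.029 without HG replicate 1). Of 30 channels and transporters of potassium, chloride and cell volume 3 rose and 8 fell (median -0.04, and from -0.075 without HG replicate 3 to 0.026 without HG replicate 1), and with library totals as the scale 5 fell. The number that fell was 4 without NC replicate 1 and 5 without HG replicate 1 or HG replicate 2.

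Slc5a3 lies inside the span of Mrps6, a mitochondrial ribosomal protein gene, on the plus strand of chromosome 16 in mm10: Mrps6 runs from 92058270 to 92112227 and Slc5a3 from 92058322 to 92087473, so their annotated starts are 52 bases apart. Mrps6 had 75.3, 88.6 and 74.0 CPM in NC and 155, 173 and 139 CPM in HG (0.98 ± 0.08, adjusted p = 1.2e-06), and its groups did not overlap. The other 39 tested mitochondrial ribosomal protein genes had log2 fold changes between -0.15 and 0.22. Of all 40, 4 rose and 1 fell (median 0.05, and from 0.011 without HG replicate 2 to 0.087 without HG replicate 3). The number that rose was 9 without HG replicate 3, 7 without NC replicate 2, 2 without NC replicate 3 and 1 without HG replicate 1 or HG replicate 2, and 0 fell without NC replicate 1, NC replicate 2 or HG replicate 3. Mrps6 shares 19.9% of its exonic length with another annotated gene, and Slc5a3 shares 1.46% with Mrps6, so part of their reads could be assigned to either.

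Of 22 genes of fatty acid synthesis and desaturation 14 rose and 1 fell (median 0.15; 0 fell without NC replicate 1): fatty acid synthase Fasn had 329, 359 and 355 CPM in NC and 469, 471 and 478 CPM in HG (0.44 ± 0.04, adjusted p = 2.5e-06), and the elongase Elovl6 44.0, 47.7 and 43.4 CPM in NC and 61.9, 65.0 and 65.7 CPM in HG (0.51 ± 0.05). Of 30 genes of fatty acid activation and oxidation, the opposing pathway, 14 rose and 3 fell (median 0.07), with Cpt1a, which admits fatty acids to mitochondria, at 46.3, 47.1 and 50.04 CPM in NC and 63.05, 59.95 and 63.29 CPM in HG (0.38 ± 0.04). The HG libraries of all 3 genes lay above all NC libraries. In the eicosanoid list 6 of 21 rose and 3 fell, or 5 fell without NC replicate 3. Alox5, which starts leukotriene synthesis, had 24.3, 27.2 and 26.5 CPM in NC and 50.5, 50.1 and 49.4 CPM in HG (0.95 ± 0.05, adjusted p = 1.7e-08), and the prostaglandin-degrading Hpgd rose by 1.09 ± 0.14, while Ptgs2 and the prostaglandin E synthase Ptges fell (-1.04 and -1.35).

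DNA replication genes rose widely and slightly, 29 of 43 with 1 falling (median 0.15). Gins3, a subunit of the replicative helicase complex, had 37.9, 40.5 and 38.1 CPM in NC and 54.2, 60.7 and 53.9 CPM in HG (0.54 ± 0.06), and Pcna, the polymerase clamp, 509, 479 and 484 CPM in NC and 574, 599 and 554 CPM in HG (0.23 ± 0.05). Orc1, of the origin recognition complex, was the member that fell (-0.28 ± 0.06, from 27.6 to 22.8 CPM). Of 21 genes of G1 cyclins, CDK inhibitors and E2F factors 7 rose and 5 fell (median 0.02), or 4 rose without NC replicate 3, and the falls were the larger changes. The largest rises were those of the pocket protein gene Rbl2 (0.35 ± 0.05) and of E2f8 (0.31 ± 0.04). Among the falls, Ccnd1 (cyclin D1) went from 660, 614 and 648 CPM to 424, 409 and 444 CPM (-0.59 ± 0.04), its kinase gene Cdk6 from 241, 244 and 243 CPM to 148, 138 and 138 CPM (-0.78 ± 0.04), and the inhibitor gene Cdkn1a from 172, 171 and 173 CPM to 115, 101 and 113 CPM (-0.65 ± 0.05). In each the NC and HG libraries were well apart. Ribosome biogenesis genes, at 49, had 13 rises and 0 falls (median 0.06, and 0.037 without HG replicate 2), the largest being Polr1b at 0.28 ± 0.05. Without NC replicate 1, 6 rose, and without HG replicate 1 or HG replicate 3, 1 fell.

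Of 29 nuclear receptor and coregulator genes 10 rose and 5 fell (median 0.17, and 0.109 without HG replicate 1). The number that fell was 2 without NC replicate 3 and 3 without any 1 of NC replicates 1 and 2 and HG replicates 1 and 2. The retinoic acid receptor gene Rarb had 9.23, 11.1 and 9.10 CPM in NC and 23.3, 28.6 and 24.2 CPM in HG (1.38 ± 0.12); it overlaps Top2b over 34.1% of its exonic length. Ppargc1b, a coactivator of mitochondrial genes, rose from 18.3 ± 0.927 to 24.2 ± 0.619 CPM (0.41 ± 0.06), and Ppard, a fatty acid sensor, fell from 8.35 ± 0.675 to 5.41 ± 0.159 CPM (-0.63 ± 0.08, SD, n = 3). In the BCL2 family 2 of 18 rose and 8 fell (median -0.18), or 1 rose without NC replicate 1. The survival genes Mcl1, at 621, 588 and 617 CPM in NC and 440, 410 and 422 CPM in HG (-0.52 ± 0.04), and Bcl2l1, from 84.6 to 51.9 CPM (-0.71 ± 0.05), fell, and the pro-apoptotic Bmf, at 2.02, 2.56 and 3.04 CPM in NC and 6.13, 7.53 and 6.60 CPM in HG, rose (1.41 ± 0.14).

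**Figure D3:**
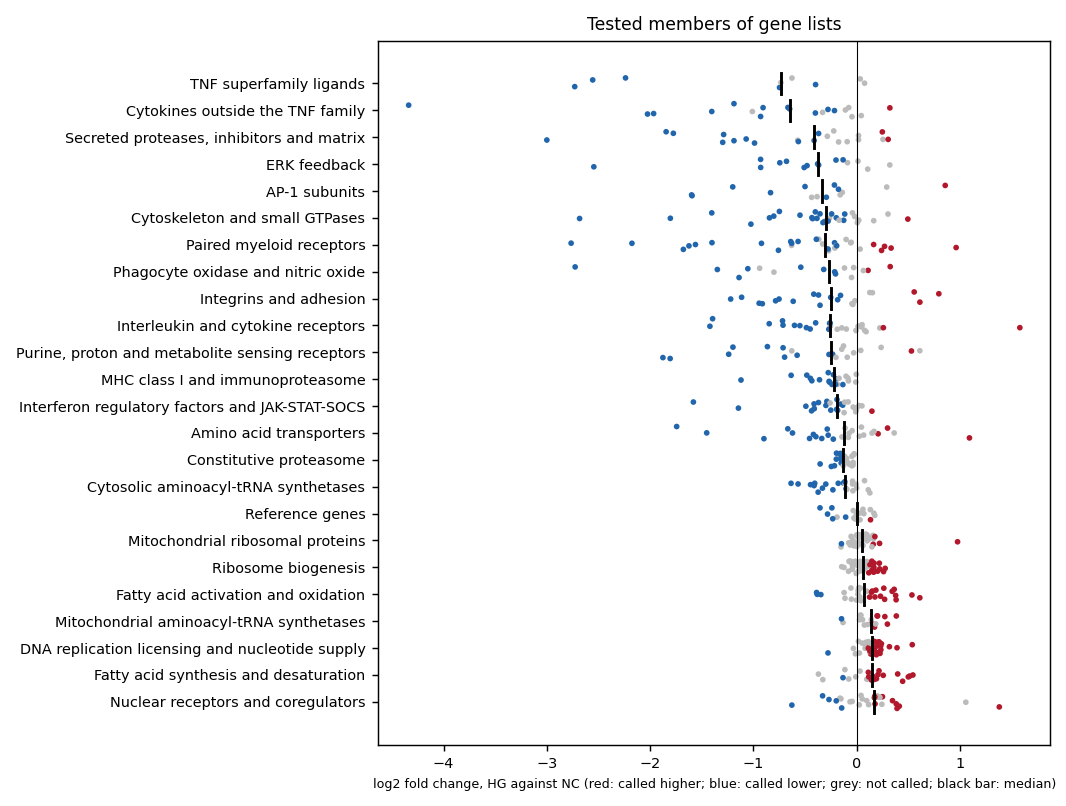
Log2 fold change of HG against NC for each tested member of 24 gene lists (red, called higher; blue, called lower; grey, not called), with the list median as a black bar. Cytokine, protease and cytoskeletal lists spread to the left, whereas the DNA replication and fatty acid synthesis lists sit slightly to the right with medians of 0.15.

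Some groups moved little. Of 33 genes of protein translocation, glycosylation and vesicle coats in the endoplasmic reticulum 1 rose (0 without any 1 of the 6 libraries) and 8 fell, and the largest change was -0.37 in Sec11c (median -0.04). Of 20 common reference genes 1 rose and 5 fell (median 0.00), and with library totals as the scale 5 rose and 4 fell. Without HG replicate 1 or HG replicate 2, 0 rose, and without NC replicate 2 or HG replicate 3, 2 rose. Eef1a1, a translation elongation factor gene, stood at 12527 ± 565 CPM in the control libraries and at 13140 ± 102 CPM in HG (0.07 ± 0.04, adjusted p = 0.196, SD, n = 3). Pgk1, a glycolytic enzyme gene, fell from 1906, 1887 and 1888 CPM to 1578, 1560 and 1531 CPM (-0.28 ± 0.04), and with Actb and B2m it is among the reference genes that changed past the test. The glucose-responsive Txnip rose from 243, 248 and 294 CPM to 319, 321 and 378 CPM (0.38 ± 0.09, adjusted p = 0.00633), and Slc2a1, the main glucose transporter, went from 338, 323 and 354 CPM to 174, 156 and 177 CPM (-1.002 ± 0.078). In bulk RNA, fewer cells in a state and less RNA per cell cannot be told apart.

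Genes that are neighbours on a chromosome were scanned for runs of 5 or more tested genes in a row called in the same direction. There were 14 such runs, 12 lower and 2 higher in HG, over 12109 genes with a position. The longest held 7 genes of the interferon-inducible Ifi200 family, which sense DNA, on chromosome 1 from 173630917 to 173982744 (mm10): Ifi209, Ifi207, Ifi204, Mndal, Ifi211, Ifi203 and Ifi202b fell, with log2 fold changes from -1.71 to -1.20. On chromosome 5, from 120730333 to 120907521, 6 neighbouring genes of the Oas family, whose active members make the activator of the antiviral nuclease RNase L, fell, from -0.34 for Oas1c to -1.02 for Oas3. Oas1c was not called without NC replicate 1 (adjusted p = 0.0643), without HG replicate 1 (0.0601) or with DESeq2 (0.0962). On chromosome 7, from 3711409 to 4063204, Pirb, Gm15922, Pira2, Gm14548 and Lair1 fell, and Pira2 was not called without NC replicate 1 (adjusted p = 0.06), without NC replicate 3 (0.066) or without HG replicate 2 (0.054). Gm14548 was not called without NC replicate 3 (adjusted p = 0.0668), without HG replicate 1 (0.0617) or without HG replicate 2 (0.0733). Members of each family resemble each other, so their reads may be shared and the genes are not independent. Of the 2 runs of rises, 1 held 5 zinc finger genes on chromosome 2.

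**Figure D4:**
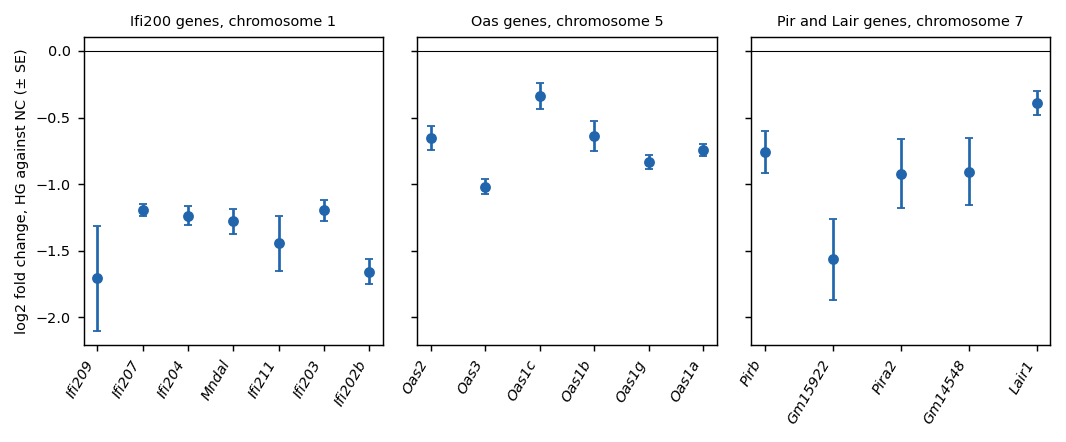
Log2 fold change of HG against NC with its standard error for the genes of 3 runs of neighbouring genes, in chromosomal order: the Ifi200 genes, the Oas genes and the Pir and Lair genes. Every gene drawn lies below 0, and the Ifi200 genes lie at -1.20 or lower.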

How the data were processed

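Polyadenylated RNA was sequenced after Trizol extraction, oligo(dT) selection and random-hexamer priming, per the labels' protocols. The authors deposited gene counts, made with Bowtie2 2.3.5, RSEM and mm10 per the submitters' processing notes; all values were whole numbers. The sources used here name neither the annotation release nor strandedness, so values of overlapping genes are uncertain. Overlap was not given beside every gene. For example, another gene overlaps Ccnd1 over 23.4% of its exonic length, Cebpb over 20.7%, Txnip over 19.4% and Dbp over 18.0%. Groups came from sample titles. Counts of all 9 libraries were filtered with edgeR's filterByExpr, scaled by TMM and fitted in edgeR 4.0.16 (R 4.3.3) with a mean per group. HG against NC was tested by the quasi-likelihood F-test with Benjamini-Hochberg adjustment over all features, and every adjusted p comes from this fit unless another is named. Calls had an adjusted p under 0.05. Values are TMM-scaled CPM in each library or mean ± SD (n = 3), and log2 fold changes carry their SE. Myc was compared with Mycn, and Gapdh with Pgk1, per kilobase of GENCODE M21 exon. Other rankings by level, and words such as abundant or scarce, rest on counts or CPM, which are not scaled by gene length. Genes were named from the 30 largest rises and 30 largest falls. These were taken from called genes whose average log2 CPM was at least 2, whose groups did not overlap and which have an established symbol. Up to 8 called and 2 uncalled members of each of 48 gene lists could also be named. So could genes in runs of neighbours and called genes with no count in 1 group. A further 14 genes were chosen whatever their result. The gene of dipeptidyl peptidase 4, among the 14, is not described here. Of the 164 genes named in the text, 31 lie outside the largest changes, the list members so chosen and the 14 genes. Most of the 31 are members of runs or exceptions to their list's direction. All 31 were chosen after their values were seen. The members and lists were chosen with earlier results of these data known. Scripts were tested on simulated data. Alternatives were scaling, filters, DESeq2 1.42.0, limma 3.58.1 on voom weights or on log2(TPM + 1) computed here, a replicate block, the 6 libraries alone and leaving out each library. Figures were drawn with matplotlib 3.10.9.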

Additional observations from a re-analysis of the deposited data

How the results depend on the processing

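The count of called features was 3062 to 4663 over the alternatives against 3927, and 3062 to 4000 when 1 library was left out (rises 1405 to 1871, falls 1657 to 2129). Counts past 1 on the log2 scale went from 83 rises and 296 falls to 26 and 132 with limma on log2(TPM + 1), a scale that understates changes of low genes, and to 51 rises with a stricter filter, which tests fewer low genes. The same limma fit gave medians of -0.405 for the TNF superfamily ligands and -0.332 for the other cytokines, against -0.73 and -0.65. The share of calls that were higher, 48.4%, was 58.9% with library totals as the scale, 55.3% with upper-quartile factors and 59.1% with limma on log2(TPM + 1). DESeq2 called 3461 features and limma-voom 3910. With the replicate number as a block 4663 were called (2291 higher, 2372 lower). Deviations of same-numbered libraries correlated at 0.082, 0.13 and 0.179, each library highest with its own number. These correlations are small. Whether same-numbered libraries were paired was not tested and is not known from the design. The block changed the count of proteasome genes that fell from 14 to 25. Of 149 called genes named in the text 4 lost their call under at least 1 alternative: Mir17hg without NC replicate 1, Oas1c without NC replicate 1 or HG replicate 1 and with DESeq2, and Pira2 and Gm14548 each without any 1 of 3 libraries. None of the 149 reversed. Depth limits the scarce genes: under an average log2 CPM of 0 the median SE was 0.38.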

Other observations

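Called features included noncoding and unannotated transcripts. Of 11246 tested protein-coding genes 1776 were higher and 1850 lower in HG (32.2% called), of 289 long intergenic noncoding RNAs 14 and 32 (15.9%), of 292 antisense transcripts 6 and 17 (7.88%) and of 1186 loci without a gene name 88 and 93 (15.3%). The difference between these classes was not tested. Mir22hg, the host transcript of a microRNA, went from 14.9, 13.1 and 15.6 CPM in NC to 7.66, 7.89 and 8.18 CPM in HG (log2 fold change -0.88 ± 0.08), and the paraspeckle RNA Neat1 from 787, 662 and 685 to 554, 508 and 497 CPM (-0.45 ± 0.06). Mir17hg, host of a microRNA cluster, rose from 26.8 ± 0.452 to 34.8 ± 4.67 CPM (0.37 ± 0.10, adjusted p = 0.0149, and 0.05 without NC replicate 1; SD, n = 3). Malat1, the most abundant uncalled member of the list of long noncoding RNAs, had a log2 fold change of 0.14.

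Genes for controls of messenger RNA stability and for metal handling were also measured. Of 30 genes of mRNA decay 4 rose and 6 fell (median log2 fold change 0.00). These are 13.3% and 20%, near the 14.3% and 15.2% of all features. Zc3h12a, the endonuclease that cuts inflammatory transcripts, went from 22.6, 22.3 and 24.1 CPM to 9.19, 7.93 and 9.63 CPM (-1.37 ± 0.08, adjusted p = 9.9e-08). Slc11a1, the phagosomal metal transporter, fell from 54.7, 50.7 and 60.5 to 29.4, 27.5 and 29.9 CPM (-0.94 ± 0.06), and the ferritin chain genes Ftl1 and Fth1 were not called (0.07 and -0.12). Gch1, which makes the cofactor of nitric oxide synthase, went from 31.8, 31.2 and 30.5 CPM to 14.1, 14.8 and 13.4 CPM (-1.14 ± 0.06). Nos2, the inducible synthase itself, had 67 counts over the NC libraries and 9 over the HG libraries. Among clock genes the repressor Bhlhe40 fell from 69.6 to 38.6 CPM (-0.85 ± 0.09) and the output factor Dbp rose from 4.21 to 7.22 CPM (0.78 ± 0.10).

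Hist2h3c1, a replication-dependent histone gene, had 0 counts in all 3 NC libraries and 22, 29 and 16 in HG. It has near-identical copies, so its reads could have been divided differently between them. The reference gene Gapdh, chosen after its values were seen, stood at 73.4 ± 8.23 CPM in the control libraries and at 64.6 ± 14.6 CPM in HG, far below Pgk1 at 1894 ± 10.4 CPM (SD, n = 3), or 17.8 against 844 CPM per kb of exon in NC. How reads that also match similar sequences, such as pseudogenes, were counted is not stated. The low Gapdh value may therefore not give the level of its transcript, which was not tested.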
